A study of Mus musculus with 2 samples.

Results

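The matrix metalloproteinases *Mmp2*, *Mmp3*, *Mmp8*, *Mmp9*, *Mmp13*, *Mmp14* and *Mmp19* and the tissue inhibitors of metalloproteinases *Timp1*, *Timp2* and *Timp3* were read in single cells of mouse periodontal tissue. These 10 genes, 7 proteases and 3 inhibitors, were taken by their symbols from the 31053 genes of the count matrices, and each symbol named 1 gene. All mice were wild-type C57BL/6 animals aged 8 weeks. The control group received no treatment, and the group with ligature-induced periodontitis (LIP) carried a ligature around a tooth, which gathers bacteria and leads to inflammation and loss of alveolar bone, with cells collected a week after its placement. Cells stripped from the gingiva and scraped from the alveolar bone surface of 5 mice per group were pooled into 1 library each. With 1 library per condition no test between conditions was possible, and a ratio compares these libraries only. All intervals are at the 95% level and cover counting error alone, not the spread between mice.

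Matrix metalloproteinases are zinc-dependent endopeptidases that are made as inactive precursors and cut the proteins of the extracellular matrix. *Mmp8* and *Mmp13* encode collagenases that open the collagen triple helix, *Mmp2* and *Mmp9* gelatinases that cut unwound collagen, *Mmp3* a stromelysin that also activates other precursors, and *Mmp14* a protease anchored in the cell membrane that activates the *Mmp2* product together with the *Timp2* product. TIMPs bind the active site of the proteases and block it, and the *Timp3* product stays bound to the matrix. In periodontal tissue the granules of neutrophils carry collagenase and gelatinase, whereas stromal and bone-forming cells make matrix and remodel it.

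The control library held 1169 barcodes and 16472915 unique molecular identifiers (UMIs, which count captured transcripts), and the LIP library 1212 barcodes and 14236327 UMIs. After filtering on genes, UMIs and mitochondrial share, 883 control cells with a median of 10845 UMIs and 936 LIP cells with a median of 5595 UMIs were kept. The libraries shared 2 barcodes, of which 1 was kept, and Scrublet marked 4 control cells and 1 LIP cell as doublets, which stayed in. Cells were clustered without the 10 genes and each cluster was called by its markers as an "-like" class. Every marker of its class was found in each library, with the exceptions of *Car1* in control erythroid-like cells, *Phex* and *Mepe* in control osteogenic-like cells, and *Bpifa2* and *Prol1* among the salivary-like cells. The osteogenic-like class held 31 control and 40 LIP cells, the fibroblast-like class 83 and 22, the neutrophil-like class 51 and 318, and the epithelial-like class 243 and 93. Levels are UMIs per 1000000 UMIs of the class (CPM). As the assay counts the 3′ end of each transcript once, levels of different genes were compared without a correction for length.

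*Mmp13*, *Mmp3* and *Mmp8* lie on chromosome 9 within 427 kb that hold 10 metalloproteinase genes. Their promoters are shown because these neighbouring genes differed in their source classes. *Mmp8* was read chiefly in neutrophil-like cells, *Mmp13* in osteogenic-like cells and *Mmp3* in both osteogenic-like and fibroblast-like cells. The 150 bases before the RefSeq start of each gene (GRCm38.p6, + strand, 5′ to 3′) run over chr9:7272364-7272513 for *Mmp13*, chr9:7445672-7445821 for *Mmp3* and chr9:7558279-7558428 for *Mmp8*. Capitals mark TGANTCA, the motif bound by AP-1 (dimers of Fos and Jun proteins), searched on both strands (it is its own reverse complement).
Mmp13: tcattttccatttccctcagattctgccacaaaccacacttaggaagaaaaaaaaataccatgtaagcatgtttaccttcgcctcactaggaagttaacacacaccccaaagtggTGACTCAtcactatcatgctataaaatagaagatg
Mmp3: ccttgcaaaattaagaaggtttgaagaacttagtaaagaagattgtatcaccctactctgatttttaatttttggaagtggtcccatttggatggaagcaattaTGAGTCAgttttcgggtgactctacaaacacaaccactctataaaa
Mmp8: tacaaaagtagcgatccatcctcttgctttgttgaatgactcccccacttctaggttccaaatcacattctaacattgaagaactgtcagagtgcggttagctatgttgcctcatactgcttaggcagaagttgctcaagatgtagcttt
The motif began 35 bases before the start of *Mmp13* and 46 bases before that of *Mmp3*, and the *Mmp8* window did not hold it. Of the 10 genes, 7 were in the promoter table, and among these only *Mmp13* and *Mmp3* held the motif between 250 bases before and 50 bases after the start. Of all 32851 promoters in the table, 2565 (7.808%) held it. These letters describe the window and not a bound site.

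In GRCm38 (GENCODE M21 annotation), 9 of the 10 genes are on the + strand. The gelatinase genes were *Mmp2* (ENSMUSG00000031740) at chr8:92827291-92853420 and *Mmp9* (ENSMUSG00000017737) at chr2:164940780-164955850. On chromosome 9 were *Mmp13* (ENSMUSG00000050578) at chr9:7272514-7283331, *Mmp3* (ENSMUSG00000043613) at chr9:7445822-7455975 and *Mmp8* (ENSMUSG00000005800) at chr9:7558456-7568485. Elsewhere were *Mmp14* (ENSMUSG00000000957) at chr14:54431612-54445364, *Mmp19* (ENSMUSG00000025355) at chr10:128790910-128800824, *Timp1* (ENSMUSG00000001131) at chrX:20870166-20874735 and *Timp3* (ENSMUSG00000020044) at chr10:86300372-86349506. On the - strand was *Timp2* (ENSMUSG00000017466) at chr11:118301069-118355740. *Timp1* lies within *Syn1* and *Timp3* within *Syn3*, both on the opposite strand, and *Mmp19* overlaps *Tmem198b* and *Gm47093*, also on the opposite strand. *Timp2* overlaps *Cep295nl* on the same strand, so reads there could be assigned to either.

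**Figure D1:**
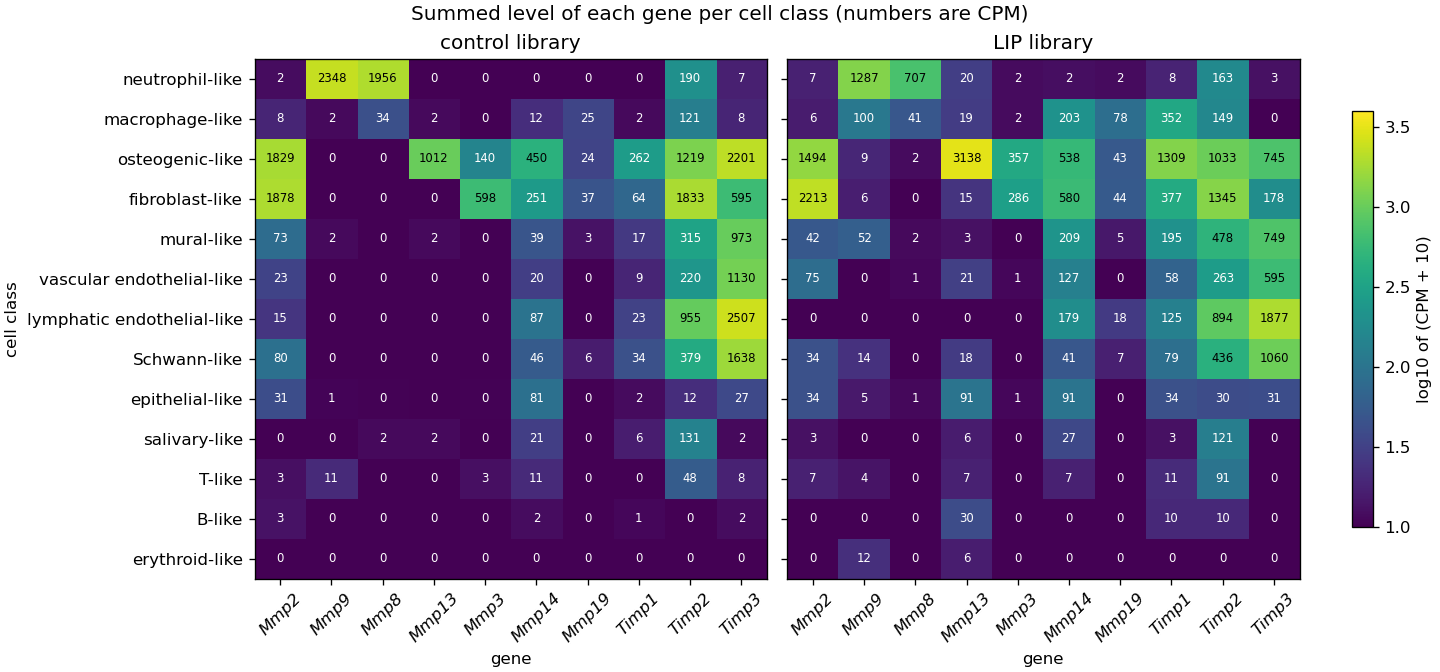
Heat map of the level of each gene (columns) in each class (rows) of the control library (left) and the LIP library (right), with the CPM of the class printed in each field and coloured by its log10 after adding 10. *Mmp8* and *Mmp9* stand highest in the neutrophil-like cells and *Mmp13* in the osteogenic-like cells, whereas *Timp2* and *Timp3* are found across the stromal, endothelial and Schwann-like classes.

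The gelatinases came from different cells. *Mmp2* was read in the fibroblast-like cells at 2213 CPM (2081–2351) in the LIP library and 1878 CPM (1792–1967) in the control library. In the osteogenic-like cells it was at 1494 CPM (1419–1572) in the LIP library and 1829 CPM (1694–1972) in the control library. These classes did not differ beyond counting error in the control library (log2 ratio 0.038, -0.090 to 0.17) and were followed at a distance, by vascular endothelial-like cells in LIP (74.8 CPM) and Schwann-like cells in control (80.4 CPM). *Mmp9* stood highest in the neutrophil-like cells, at 1287 CPM (1233–1344) in the LIP library and 2348 CPM (2205–2497) in the control library. Next in order were macrophage-like cells in LIP (100.3 CPM) and T-like cells in control (10.6 CPM, 4 UMIs). The macrophage-like level rested on 1 cell, which held 122 of the 156 UMIs, and without it was 22.6 CPM. That cell also held 403 UMIs of *Acp5* and 161 of *Ctsk*, which osteoclasts use to resorb bone, and 1 of *Ocstamp*. Of the osteoclast markers, the LIP macrophage-like cells as a whole held 1336 *Acp5* UMIs in 37 cells (control 20), 332 *Ctsk* UMIs in 20 cells (control 2), 79 *Atp6v0d2* UMIs in 6 cells (control 0), 51 *Dcstamp* UMIs in 13 cells (control 25) and 19 *Ocstamp* UMIs in 7 cells (control 0), while *Oscar* and *Calcr* were at 0 in both libraries. Their part in the *Mmp9* level was not tested.

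The collagenases divided between neutrophil-like and osteogenic-like cells. *Mmp8* in the neutrophil-like cells was at 707 CPM (667–749.7) in the LIP library and 1956 CPM (1827–2093) in the control library. Of its UMIs in kept cells, this made 94.0% in LIP and 97.2% in control. Macrophage-like cells followed at 41.2 CPM in LIP and 33.6 CPM in control. These came chiefly from a part led by the mast cell marker *Mcpt4* and by *Chil3* and *Ly6c2* (164 and 167 CPM). *Mmp13* in the osteogenic-like cells was at 3138 CPM (3029–3250.1) in the LIP library and 1012 CPM (912–1119) in the control library. Of its UMIs in kept cells, 88.0% in LIP and 98.9% in control were in this class, while LIP barcodes left out by the filter held a further 7846. With each cell weighed the same the LIP share of *Mmp13* in this class was 55.8%. In LIP it was also found outside this class, at 90.8 CPM in epithelial-like cells, chiefly from 1 cell, and in the other classes of at least 10 cells from 30.3 CPM in B-like to 3.13 CPM in mural-like cells (2 UMIs), with 20.7 CPM in vascular endothelial-like, 20.4 CPM in neutrophil-like and 18.2 CPM in Schwann-like cells. Whether these UMIs were made by the cells that held them was not tested. At an equal depth of 1000 UMIs per cell, 35% of osteogenic-like LIP cells held a *Mmp13* UMI, against 1.94% of neutrophil-like cells. Without thinning these were 25 of 40 cells at a median depth of 23956 UMIs and 31 of 318 at 3884.

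*Mmp3* was confined to stromal classes as far as its counts reached. The fibroblast-like cells held it at 286 CPM (239–338) in the LIP library and 598 CPM (550.0–649.5) in the control library, and the osteogenic-like cells at 357 CPM (320.4–396) in the LIP library and 140.3 CPM (105–184) in the control library. Outside these classes and in either library it did not exceed 3 UMIs in any class. Of the osteogenic-like LIP UMIs, 219 of 354 came from 1 cell, without which the level was 139 CPM. Of the osteogenic-like control UMIs, 27 of 52 came from 1 cell, without which the level was 69.6 CPM.

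*Mmp14*, the membrane-bound protease, was spread more widely. It was at 579.6 CPM (513–652) in the LIP library and 251 CPM (219.8–285) in the control library in fibroblast-like cells and at 538 CPM (493–586) in the LIP library and 450.5 CPM (385–524) in the control library in osteogenic-like cells. In LIP these classes did not differ beyond counting error (log2 ratio 0.11), and neither did the mural-like (209 CPM) and macrophage-like (203 CPM) cells, which came next, from each other. Of the mural-like UMIs 54 of 134 came from 1 cell, without which the level was 130.7 CPM. Without their own richest cell the macrophage-like cells stood at 190.8 CPM. *Mmp19* was low throughout, highest in macrophage-like cells in LIP (77.8 CPM) and in fibroblast-like cells in control (36.9 CPM). The leading classes of *Mmp19* in control, fibroblast-like, macrophage-like and osteogenic-like, did not differ beyond counting error.

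Among the inhibitors, *Timp1* stood highest in the osteogenic-like cells, at 1309 CPM (1238–1382) in the LIP library and 262 CPM (212–319) in the control library. Fibroblast-like (377 CPM) and macrophage-like (352 CPM) cells followed in LIP and did not differ from each other beyond counting error. In neutrophil-like cells *Timp1* was absent among the control UMIs, which allows up to 6.95 CPM, and was at 8.05 CPM (13 UMIs) in LIP, no more than the 10.1 CPM (1 UMI) of B-like cells. *Timp2* was at 1345 CPM (1243–1454) in the LIP library and 1833 CPM (1748–1921) in the control library in fibroblast-like cells and at 1033 CPM (970.3–1098) in the LIP library and 1219 CPM (1109–1337) in the control library in osteogenic-like cells. It was also the inhibitor of the neutrophil-like cells, at 163 CPM in LIP and 189.8 CPM in control. *Timp3* was found in vessel, nerve sheath and stromal classes. Lymphatic endothelial-like cells led in control at 2507 CPM and, from 5 cells, stood at 1877 CPM in LIP. Schwann-like cells held 1059.7 CPM in LIP and 1638 CPM in control, osteogenic-like cells 745 and 2201 CPM, and mural-like cells 749 and 973 CPM. In LIP the mural-like and osteogenic-like levels did not differ beyond counting error. Neutrophil-like, B-like, T-like and epithelial-like cells did not exceed 30.8 CPM in either library.

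**Figure D2:**
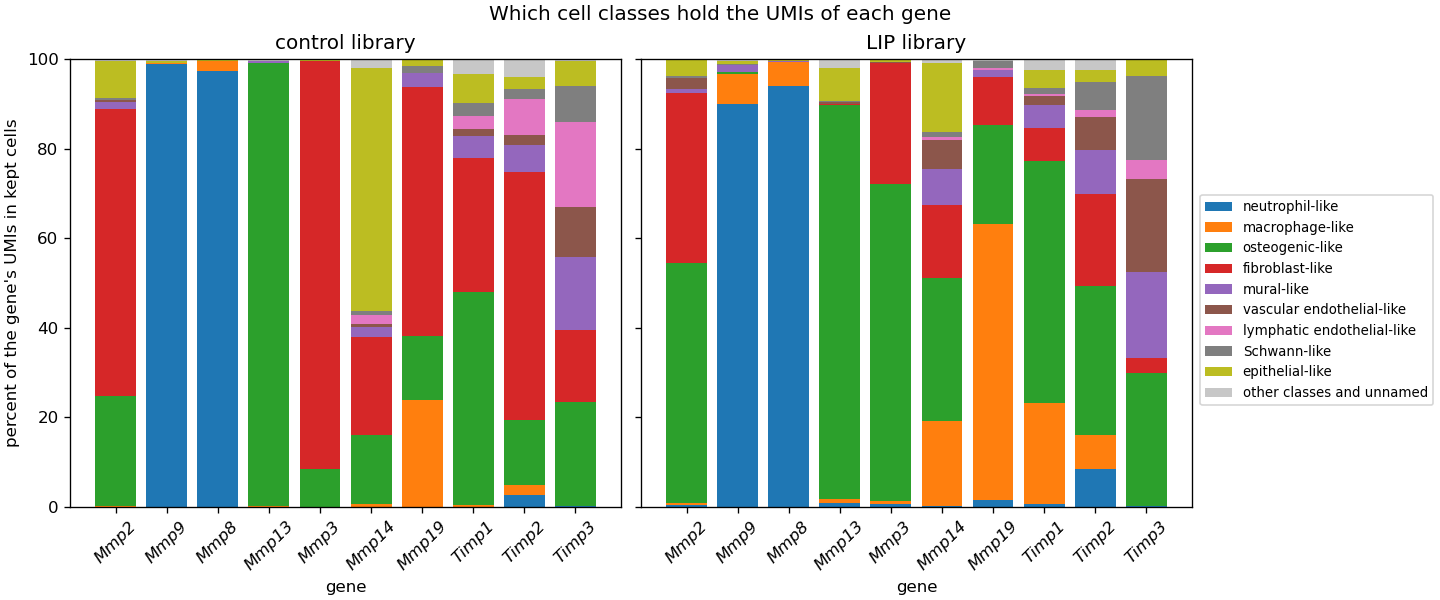
Stacked bars give, for each gene, the percent of its UMIs in kept cells that each class held, in the control library (left) and the LIP library (right), with the smaller classes and unnamed cells joined in light grey at the top. The *Mmp8* bars are nearly all neutrophil-like (94.0% in LIP) and the *Mmp13* bars nearly all osteogenic-like (88.0% in LIP), whereas the *Timp2* and *Timp3* bars are divided among many classes.

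By source, the protease UMIs of the kept control cells came from fibroblast-like (38.5%), neutrophil-like (27.3%), osteogenic-like (18.8%) and epithelial-like (12.1%) cells. In the kept LIP cells the order was osteogenic-like (45.4%), neutrophil-like (26.9%), fibroblast-like (12.2%) and macrophage-like (5.72%). The inhibitor UMIs of the kept LIP cells came from osteogenic-like (38.3%), mural-like (11.4%), fibroblast-like (11.2%) and vascular endothelial-like (9.95%) cells, whereas neutrophil-like cells gave 3.53%. Barcodes left out by the filter, which were given no class, held 9325 of the 21525 protease UMIs of all LIP barcodes. They held 3404 of the 11396 inhibitor UMIs. The class shares move with the number of cells captured of each class as well as with their levels, and the classes were captured in different numbers. The neutrophil-like cells were 34.0% of the kept LIP cells and 5.78% of the kept control cells.

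Weighed against each other within a class, proteases exceeded inhibitors in the neutrophil-like cells and were below them in the vessel and Schwann-like cells. The log2 ratio of summed protease over summed inhibitor UMIs was 3.54 (3.36 to 3.72) in LIP and 4.45 (4.14 to 4.78) in control for neutrophil-like cells. Epithelial-like cells stood at 1.23 (1.02 to 1.44) and 1.48 (1.28 to 1.67), chiefly from *Mmp14* in control. In LIP 1 cell with stromal transcripts held 237 *Mmp13*, 48 *Mmp14* and 47 *Mmp2* of the 635 protease UMIs of this class. At the other end the ratio was -3.79 (-4.24 to -3.38) and -3.96 (-4.63 to -3.35) in Schwann-like, -2.03 (-2.26 to -1.80) and -4.97 (-5.82 to -4.23) in vascular endothelial-like, -2.19 (-2.41 to -1.96) and -3.46 (-3.84 to -3.11) in mural-like and -3.88 (-4.91 to -3.00) and -5.10 (-5.70 to -4.54) in lymphatic endothelial-like cells. Between these lay the stromal classes, with osteogenic-like cells at 0.85 (0.79 to 0.92) in LIP and -0.092 (-0.20 to 0.019) in control and fibroblast-like cells at 0.73 (0.61 to 0.85) and 0.15 (0.069 to 0.23). Macrophage-like cells were at -0.16 (-0.31 to -0.0092) and -0.67 (-1.22 to -0.14), and the LIP value turned to 0.091 without the cell that held the most UMIs of the 10 genes, with T-like cells at -2.00 (-3.44 to -0.77) and -1.07 (-2.32 to 0.079) and salivary-like cells at -1.81 (-2.87 to -0.86) and -2.55 (-3.45 to -1.75).

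Over all kept cells the log2 ratio was 0.61 (0.57 to 0.65) in LIP and -0.0082 (-0.057 to 0.040) in control. With the neutrophil-like cells left out it was 0.21 (0.17 to 0.25) and -0.45 (-0.50 to -0.40). A sum of transcripts is not an activity, since the proteases are made as precursors, neutrophil granules are filled before the cells leave the marrow, and no protein was measured.

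**Figure D3:**
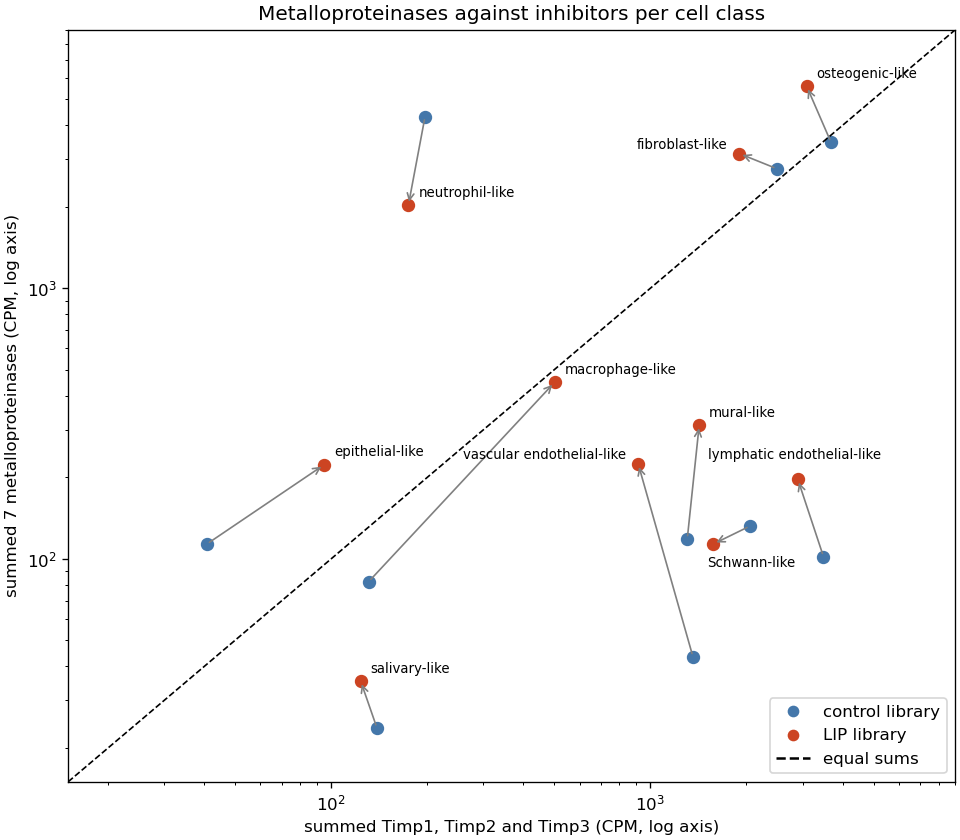
Summed CPM of the 7 proteases (vertical log axis) against that of the 3 inhibitors (horizontal log axis), 1 point per class and library (blue control, red LIP), with an arrow from control to LIP and a dashed line at equal sums; T-like, B-like and erythroid-like cells are not drawn. Neutrophil-like and epithelial-like cells lie above the line in both libraries, the vessel and Schwann-like classes below it.

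Single pairs showed what these sums hold. *Mmp9* against *Timp1* in the neutrophil-like cells gave a log2 ratio of at least 8.40 in control, where no *Timp1* UMI was found, and 7.32 (6.54 to 8.23) in LIP. In osteogenic-like cells *Mmp13* against *Timp1* was 1.26 (1.17 to 1.36) in LIP and 1.95 (1.63 to 2.29) in control. The control value rested on 1 cell, which held 354 of the 375 *Mmp13* and 56 of the 97 *Timp1* UMIs. Without that cell 21 *Mmp13* UMIs stood against 41 of *Timp1*. *Mmp2* against *Timp2*, whose products act together with that of *Mmp14*, was 0.53 (0.42 to 0.65) in LIP and 0.58 (0.41 to 0.76) in control in osteogenic-like cells. In fibroblast-like cells it was 0.72 (0.57 to 0.86) and 0.035 (-0.061 to 0.13). Per cell, 39 of 40 osteogenic-like LIP cells held UMIs of both a protease and an inhibitor, against 116 of 318 neutrophil-like LIP cells, of which 143 held a protease alone. The neutrophil-like cells were shallower, so the cell counts are not at matched depth.

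**Figure D4:**
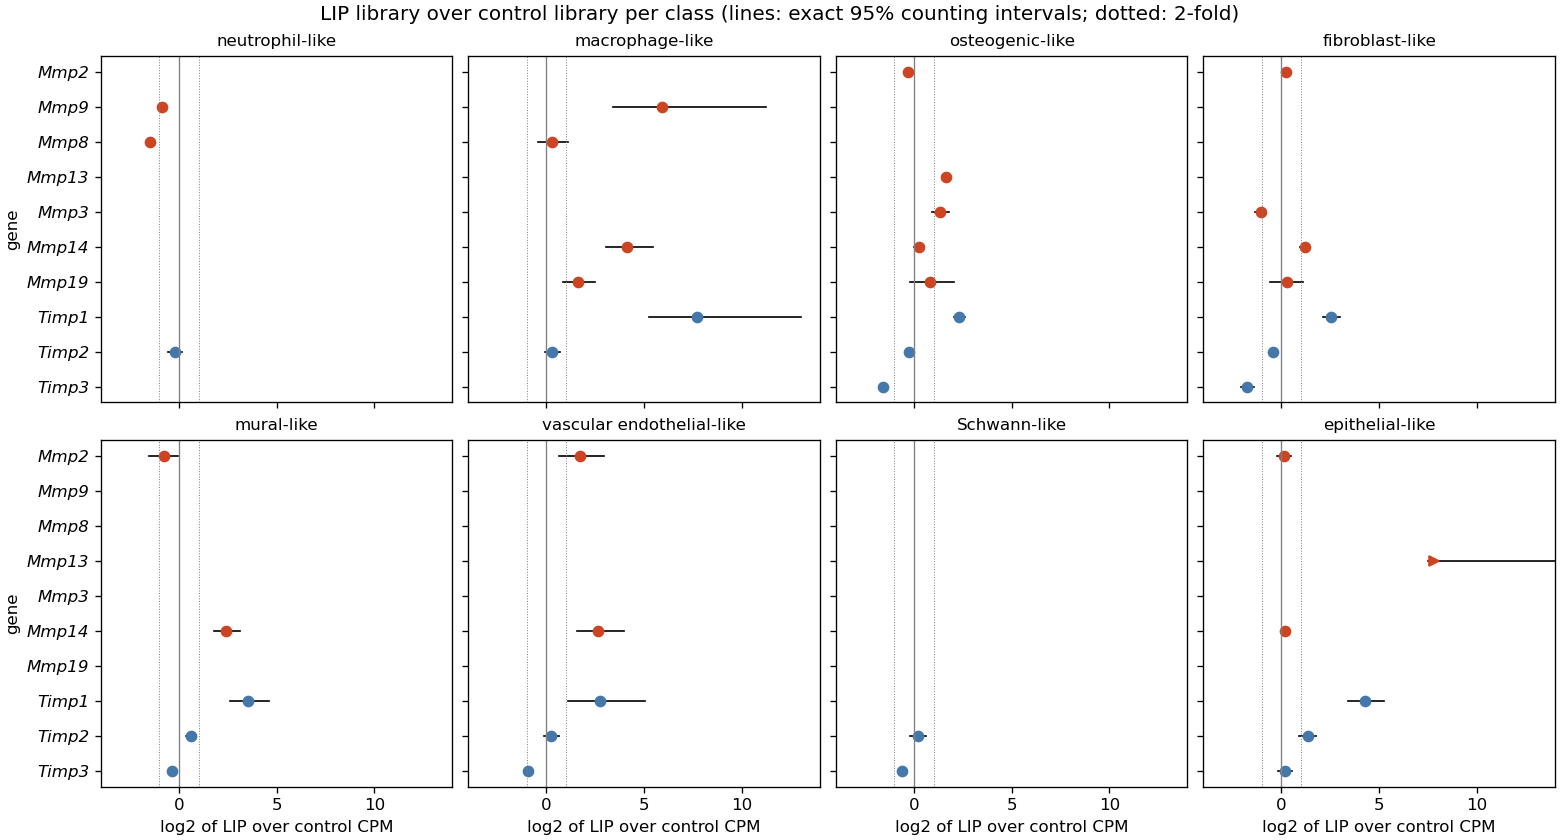
Log2 ratio of LIP over control for each gene with at least 50 UMIs over both libraries, by class, with 95% counting intervals. Metalloproteinases are red and TIMPs blue, and a triangle marks a lower bound where the control library held no UMI. *Timp1* lies above the 2-fold line in each of the 6 classes in which it was compared.

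LIP over control was compared in the 8 classes with at least 10 cells in each library, for genes with at least 50 UMIs over both. A gene was counted as higher or lower when its ratio was at least 2-fold. The median log2 ratio of all genes compared lay between -0.059 and 0.061 in the 8 classes. *Timp1* was higher in LIP in all 6 classes in which it was compared, whereas the proteases differed by class.

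In neutrophil-like cells, 12.1% of 3148 genes were at least 2-fold higher in LIP and 3.14% lower. Of the 10 genes 3 were compared, none was higher and 1 was lower. *Mmp8* had a log2 ratio of -1.47 (-1.60 to -1.34) and *Mmp9* of -0.87 (-0.98 to -0.76), while *Timp2* was at -0.22 (-0.58 to 0.16). Per cell, *Mmp8* ran from 0 to 105 UMIs with a median of 5 in control, and from 0 to 57 with a median of 0 in LIP. *Mmp9* had medians of 14 UMIs in control and 3 in LIP. The libraries overlapped from 0 up to 57 UMIs of *Mmp8* and 59 of *Mmp9*, and above these lay control cells only, up to 105 and 87. These counts are not at matched depth, as the median was 6494 UMIs per cell in control and 3884 in LIP. Both genes were found in 39 of 51 control cells and 105 of 318 LIP cells, and *Mmp9* without *Mmp8* in 10 and 136. At 1000 UMIs per cell, *Mmp8* was found in 62.7% of control and 19.0% of LIP cells, and *Mmp9* in 84.3% and 52.6%.

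The neutrophil-like class had a part led by *Ltf*, *Ngp* and *Camp*, genes of the secondary granules made in late maturation, and a part led by *Acod1* and *Ccl3*, and the libraries held them in different proportions. The granule-gene part held 27 control and 55 LIP cells, the other 24 and 263. *Mmp8* was at 2344 CPM in control and 1498 CPM in LIP in the granule-gene part, a log2 ratio of -0.65 (-0.78 to -0.51). In the other part it was at 479 and 148 CPM, a ratio of -1.70 (-2.20 to -1.17). The log2 ratio of *Mmp9* was -0.41 (-0.53 to -0.28) in the granule-gene part and -0.91 (-1.17 to -0.64) in the other. Both genes were thus below the control level in each part, and within 2-fold of it in the granule-gene part. The log2 ratio of proteases over inhibitors in the granule-gene part was 4.39 (4.11 to 4.68) in LIP and 4.78 (4.41 to 5.17) in control. In the other part it was 2.50 (2.27 to 2.75) and 2.95 (2.33 to 3.62). Within each part the intervals of the libraries overlapped, unlike those of the whole class.

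In osteogenic-like cells 8 of the 10 genes were compared, of which *Mmp13*, *Mmp3* and *Timp1* were higher in LIP and *Timp3* was lower, against 5.57% higher and 6.62% lower among all genes compared. The log2 ratio was 1.63 (1.48 to 1.79) for *Mmp13*, 1.35 (0.92 to 1.80) for *Mmp3*, 2.32 (2.02 to 2.64) for *Timp1* and -1.56 (-1.71 to -1.42) for *Timp3*. *Mmp2* at -0.29 (-0.42 to -0.16), *Mmp14* at 0.26 (0.0026 to 0.52), *Mmp19* at 0.84 (-0.22 to 2.06) and *Timp2* at -0.24 (-0.40 to -0.077) were within 2-fold. The *Mmp3* call rested on 1 LIP cell, without which the level was 139 CPM in LIP against 140.3 CPM in control (log2 ratio -0.013). The control level also rested on 1 cell, with 27 of 52 UMIs. The ratio was 2.36 without that control cell and 0.9975 (0.37 to 1.68) without the richest cell of each library. At a mitochondrial limit of 5% the *Mmp3* ratio was -0.86. *Timp3* came within 2-fold at that limit (-0.63) and with Scrublet barcodes removed (-0.57). At that limit no fibroblast-like class was named, and the osteogenic-like class held 87 control and 61 LIP cells, led also by *Mfap4* and *Lum*. With Scrublet barcodes removed the class held 20 control and 34 LIP cells, and a chondrocyte-like cluster of 11 and 7 cells stood apart. These values were thus not read in the same set of cells as the ratios above. Bone matrix genes moved with the library in the osteogenic-like class. *Ibsp* was found in 3 of 31 control cells (60 UMIs) and 18 of 40 LIP cells (7911 UMIs), and *Bglap* in 3 of 31 (204 UMIs) and 12 of 40 (8200 UMIs). Most control cells of the class thus held neither gene, and the part of this difference in the ratios was not tested. The LIP cells were deeper, with a median of 23956 UMIs against 11688. At 1000 UMIs per cell, *Mmp13* was found in 35% of LIP and 6.45% of control cells, *Timp1* in 50% and 6.45%, and *Timp3* in 37.5% and 51.6%.

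*Mmp13* was concentrated in few cells. In LIP 12 of 40 osteogenic-like cells held at least 50 UMIs each, from 78 to 754, and together 98.5% of the class's UMIs, with the next cell at 17. In control 1 of 31 cells did, with 354 of 375 UMIs. With the richest cell of each library left out, *Mmp13* was at 2470.4 CPM in LIP and 58.8 CPM in control. All 12 LIP cells also held *Timp1*, from 10 to 181 UMIs, 8 held *Ibsp*, a bone matrix gene, and 3 held *Mmp3*. Without *Mmp13*, the log2 ratio of proteases over inhibitors in this class was -0.34 (-0.41 to -0.26) in LIP and -0.59 (-0.71 to -0.47) in control.

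**Figure D5:**
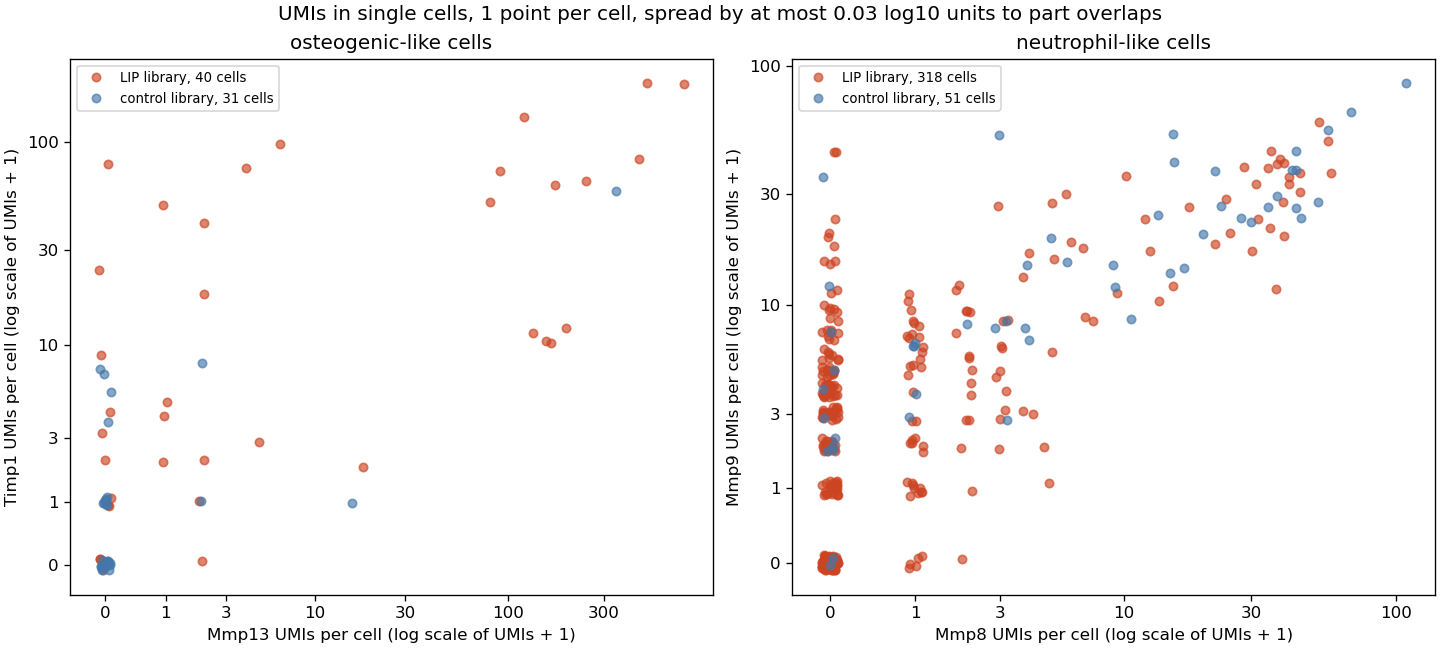
UMIs of *Timp1* against *Mmp13* in single osteogenic-like cells (left) and of *Mmp9* against *Mmp8* in single neutrophil-like cells (right), each point 1 cell (blue control, red LIP), on log axes of UMIs + 1 with points spread slightly to part overlaps. *Mmp13* lies in 12 LIP cells of 50 UMIs or more and in 1 such control cell.

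The class also held cells with cartilage transcripts. An *Acan* or *Hapln1* UMI, which cartilage cells use for their matrix, was found in 11 control and 11 LIP cells. *Timp3* was at 5566 CPM in such control cells and 2320.1 CPM in such LIP cells, against 647 and 389 CPM in those without. *Mmp13* without these cells was at 1479 CPM in control and 3469.9 CPM in LIP, and *Timp1* at 375 and 1565 CPM. The log2 ratio of proteases over inhibitors was 0.93 (0.78 to 1.08) in control and 1.03 (0.96 to 1.10) in LIP without these cells, and -2.01 (-2.24 to -1.78) and -0.24 (-0.42 to -0.068) in these cells taken alone. Without them *Timp3* had a log2 ratio of LIP over control of -0.73, within 2-fold.

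The same class fell into a part whose 10 leading genes included *Bglap*, *Ibsp* and *Dmp1* of mineralizing cells and *Cytl1* and *Cnmd* of cartilage, and a part led by *Cxcl5*, *Slpi* and *Saa3*. In the first part 3 of 17 control cells held *Bglap* or *Ibsp* and 10 *Acan* or *Hapln1*, against 13 and 10 of 19 LIP cells. Its make-up thus also differed between the libraries. In the second part *Bglap* or *Ibsp* was found in 1 of 14 control and 5 of 21 LIP cells. The second part held 1979 of the class's 3115 LIP *Mmp13* UMIs, and 7 of the 12 LIP cells with at least 50. In the first, *Mmp13* was at 2018 CPM in control, from 1 cell for most of it, and 2279 CPM in LIP, a log2 ratio of 0.18 (0.0055 to 0.35). In the second it was at 10.8 and 4005 CPM, a ratio of 8.54 (6.68 to 11.59), from 2 control UMIs. *Timp1* was higher in LIP in both, with ratios of 1.65 (1.27 to 2.05) and 3.08 (2.59 to 3.62). *Timp3* was lower in LIP in the first, -2.14 (-2.31 to -1.96), and not in the second, 0.42 (0.064 to 0.80). *Mmp3* ran opposite ways, -5.10 (-7.03 to -3.66) in the first and 7.04 (4.55 to 12.35) in the second, where 219 of 350 LIP UMIs came from 1 cell.

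In fibroblast-like cells 7 genes were compared, with *Mmp14* and *Timp1* higher in LIP and *Mmp3* and *Timp3* lower, against 2.99% higher and 4.35% lower among all genes. The log2 ratio was 1.21 (0.95 to 1.47) for *Mmp14*, 2.55 (2.12 to 3.00) for *Timp1*, -1.07 (-1.35 to -0.79) for *Mmp3* and -1.74 (-2.09 to -1.41) for *Timp3*. *Mmp2*, at 0.24 (0.13 to 0.35), and *Timp2*, at -0.45 (-0.58 to -0.31), were within 2-fold. Without the control cell richest in *Mmp3*, that gene also came within 2-fold (-0.91). Without the richest cell of each library it was at -1.20, past 2-fold. The LIP library gave 22 such cells and the control library 83.

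In macrophage-like cells 6 genes were compared, and *Mmp9*, *Mmp14*, *Mmp19* and *Timp1* were higher in LIP, against 8.21% higher and 3.72% lower among all genes. *Timp1* had 547 UMIs in LIP and 1 in control, a log2 ratio of 7.71 (5.23 to 13.02). *Mmp14* was at 4.11 (3.05 to 5.44) and *Mmp19* at 1.63 (0.85 to 2.51). *Mmp9* had 156 and 1 UMIs, a ratio of 5.90 (3.40 to 11.21), resting on the *Mmp9*-rich cell. The class was mixed, with the dendritic cell marker *Cd207* and the mast cell markers *Mcpt4*, *Cma1* and *Tpsb2* among the leading genes of its parts. The parts were held in different proportions, so a change in level and a change in make-up cannot be told apart in these ratios. A part led by *Saa3*, *Cxcl3*, *Arg1* and *Spp1* held 33 LIP cells and 3 control cells, and gave 535 of the 547 LIP *Timp1* UMIs, 105 of 121 of *Mmp19* and 219 of 316 of *Mmp14*. In the part led by *Cd207* and class II genes (34 LIP and 29 control cells), *Mmp14* was at 135 CPM in LIP and 16.6 CPM in control, a ratio of 3.02 (1.92 to 4.37). Of its 97 LIP *Mmp14* UMIs, 26 came from 1 cell with 125 *Acp5* UMIs and 21 from the *Mmp9*-rich cell, which also lay in this part. In the same part *Mmp19* was at -1.06 (-2.51 to 0.35), and its interval included 0.

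In epithelial-like cells 6 genes were compared, with *Mmp13*, *Timp1* and *Timp2* higher in LIP, against 3.24% higher and 1.74% lower among all genes. *Mmp13* was not found in control, for a log2 ratio of at least 7.79, but 237 of its 259 LIP UMIs came from 1 cell. That cell held 1596 UMIs of *Col1a1*, a collagen gene of stromal cells, and 2 of *Krt14*, and also 47 of the 96 *Mmp2*, 40 of the 98 *Timp1* and 34 of the 85 *Timp2* UMIs. Scrublet did not mark it, and the cycling part of the class that held it had no epithelial marker among its 10 leading genes. Without it, *Mmp13* was at 7.83 CPM, below the level of the neutrophil-like cells, and *Timp1* at 20.6 CPM against 1.78 CPM in control. *Timp2* then came within 2-fold, at 18.1 CPM against 11.8 CPM (log2 ratio 0.62). *Mmp14*, the most abundant of the 10 genes in control epithelial-like cells, was at 90.8 CPM (80.1–103) in the LIP library and 80.9 CPM (74.5–87.7) in the control library, a log2 ratio of 0.17 (-0.050 to 0.38). The *Col1a1*-rich cell held 48 of the 259 LIP UMIs of *Mmp14*. Without it the LIP level was 75.1 CPM, below that of control.

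In mural-like cells, which wrap vessels, *Mmp14* and *Timp1* were higher in LIP of 5 genes compared, against 3.87% higher and 3.39% lower among all genes. Their log2 ratios were 2.43 (1.78 to 3.13) and 3.53 (2.60 to 4.62). Most of these UMIs came from 1 of its parts, of 20 LIP and 19 control cells, with 122 against 15 *Mmp14* UMIs and 108 against 5 *Timp1* UMIs. A single LIP cell held 54 of the class's 134 *Mmp14* and 31 of its 125 *Timp1* UMIs. Without it the ratios were 1.75 (1.06 to 2.48) and 3.18 (2.24 to 4.29), still past 2-fold. *Timp3* was within 2-fold at -0.38 (-0.56 to -0.20).

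In vascular endothelial-like cells 3 of 5 genes compared were higher in LIP, against 5.32% higher and 3.11% lower among all genes. These were *Mmp2* at 1.69 (0.63 to 2.96), *Mmp14* at 2.64 (1.55 to 3.99) and *Timp1* at 2.73 (1.10 to 5.05). The control levels rested on 8, 7 and 3 UMIs. *Timp3*, their most abundant inhibitor, was at 595 CPM (545–649) in the LIP library and 1130.1 CPM (1021–1248) in the control library, a log2 ratio of -0.92 (-1.12 to -0.73). In Schwann-like cells *Timp2* and *Timp3* were the genes compared, and neither passed 2-fold, at 0.20 (-0.21 to 0.63) and -0.63 (-0.84 to -0.41), against 3.74% higher and 3.7% lower among all genes.

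The largest *Mmp13* signal of the LIP library lay outside the filter. Of its 276 barcodes left out, 2 that exceeded the limits on UMIs or genes, with 79853 and 95540 UMIs, held 4633 and 3070 *Mmp13* UMIs. These 7703 UMIs exceed the 3541 of all kept LIP cells. The same barcodes held 1129 and 1002 *Timp1* UMIs, 160 and 408 of *Mmp9* and 591 and 1982 of *Col1a1*. *Csf3r* of neutrophils, *Ptprc* and *Cd68* of leukocytes and *Acp5* of osteoclasts were at 0 in both. Over all deposited barcodes, the log2 ratio of proteases over inhibitors was 0.92 (0.88 to 0.95) in LIP and -0.073 (-0.12 to -0.026) in control. The same 2 barcodes, with a ratio of 1.88 (1.81 to 1.95), gave 8603 of the 21525 protease and 2338 of the 11396 inhibitor UMIs behind the LIP value. That value thus depended heavily on 2 barcodes, and it was not computed without them.

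A wider set of 59 genes of matrix proteolysis, of which 58 were in the matrices, was counted in the same 8 classes. Over the 8 classes, 2.99% to 12.1% of all genes compared were higher in LIP and 1.74% to 6.62% lower. Of the 15 other matrix metalloproteinases, 1 to 4 were compared per class, with 0 to 2 higher and 0 to 1 lower in LIP. Among the 5 other inhibitors, 0 to 2 were compared per class, with none higher and 0 to 2 lower in LIP. Of the 14 ADAM and ADAMTS proteases, 3 to 10 were compared per class, with 0 to 2 higher and 0 to 1 lower in LIP. Among the 7 genes of the plasminogen system, 1 to 4 were compared per class, with 0 to 3 higher and 0 to 1 lower in LIP. Of the 9 cathepsins and granule serine proteases, 4 to 8 were compared per class, with 0 to 5 higher and none lower in LIP. Among the 8 partners, activators and clearance receptors, 5 to 8 were compared per class, with 0 to 3 higher and 0 to 1 lower in LIP. In osteogenic-like cells (5.57% higher and 6.62% lower among all genes), of the 15 other metalloproteinases 4 were compared, 2 were higher in LIP and 1 lower, and of the 7 plasminogen system genes 3 were compared and 2 higher. Among these the log2 ratio was 1.49 for *Mmp23*, which encodes another membrane-anchored metalloproteinase, and 1.42 for *Serpine2*, an inhibitor of plasminogen activators and thrombin. *Reck*, a membrane-anchored inhibitor of metalloproteinases, was lower in LIP in osteogenic-like (-1.35) and fibroblast-like (-1.38) cells. Of the 14 ADAM and ADAMTS proteases 8 were compared in osteogenic-like cells with 1 higher, and of the 9 cathepsins and granule proteases 5 with none past 2-fold.

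In neutrophil-like cells, of the 9 cathepsins and granule proteases 5 were compared and 4 were higher in LIP, against 12.1% of all genes, among them *Ctsb* (2.36), *Ctsl* (1.14) and *Ctsz* (1.33), lysosomal cysteine proteases. In macrophage-like cells 8 were compared and 5 were higher, against 8.21% of all genes, including *Ctsk* (5.99, with 161 of 332 LIP UMIs in the *Mmp9*-rich cell), the collagen-cutting cathepsin of osteoclasts, and *Ctsl* (1.80). *Ctsk* was higher in fibroblast-like (1.15) and mural-like (1.52) cells as well. *Timp4*, a TIMP outside the 10 genes, was lower in vascular endothelial-like cells (-3.41).

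The genes whose level across classes was most like that of each member were named by Pearson's r of log2 levels over 11 classes of the LIP library, with the value over 13 control classes beside it. The points share 1 library per condition, so these are descriptions. For *Mmp8* they were *Gm34084* (0.997 and 0.97), *Olr1* (0.996 and 0.99) and *Trem3* (0.996 and 0.99), and for *Mmp9* they were *Pygl* (0.97 and 0.90), *1600010M07Rik* (0.95 and 0.81) and *Csf3r* (0.95 and 0.95). *Mmp13* was most like *Bglap2* (0.98 and 0.99), *Scx* (0.97 and 0.88) and *Car3* (0.97 and 0.60), among which *Bglap2* is an osteocalcin gene of osteoblasts and *Scx* a factor of tendon and ligament cells. *Mmp2* was most like *Ptgis* (0.97 and 0.86), *Igf1* (0.97 and 0.90) and *Mfap2* (0.96 and 0.92), *Mmp3* like *Itgbl1* (0.999 and 0.93), *Dio2* (0.998 and 0.66) and *Masp1* (0.997 and 0.96), *Mmp14* like *Ecm1* (0.96 and 0.67), *Sash1* (0.95 and 0.85) and *Cd276* (0.94 and 0.75) and *Mmp19* like *Pid1* (0.92 and 0.90), *Gpnmb* (0.92 and 0.76) and *Tmem119* (0.90 and 0.80). For the inhibitors these were *Cd302* (0.96 and 0.83), *Cdk14* (0.95 and 0.79) and *Ecm1* (0.95 and 0.61) for *Timp1*, *Reck* (0.89 and 0.81), *Zcchc24* (0.88 and 0.83) and *Slc39a13* (0.88 and 0.79) for *Timp2* and *Tcaf1* (0.97 and 0.91), *Fermt2* (0.97 and 0.96) and *Rilpl1* (0.97 and 0.89) for *Timp3*. Among the members themselves, *Mmp8* and *Mmp9* had r of 0.94 in LIP and 0.96 in control. *Mmp2* and *Mmp3* had r of 0.93 and 0.89, and *Mmp14* and *Timp1* of 0.90 and 0.88.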

How the data were processed

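Gingival and alveolar bone surface cells of control and LIP mice were profiled with 10x Genomics 3′ v3 chemistry, and the authors' alignment used mm10 and Cell Ranger, whose version stands as 3.1.0 in the matrix headers. The deposited values are raw UMI counts that were not normalized, with 5 mice in each library. The 10 genes and the wider lists were chosen with earlier results of these data known.

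Barcodes with 200 to 7500 genes, at most 60000 UMIs and at most 10% mitochondrial UMIs were kept (883 of 1169 control and 936 of 1212 LIP). Seurat 5.3.0 (R 4.3.3) served to integrate the libraries and find clusters on 2000 features, none of them a listed protease or inhibitor, with 30 dimensions, a resolution of 0.1 and a second round at 0.2. A cluster was named when at least 3 markers were found in 25% of its cells and lay 2-fold above all other cells pooled after adding 10 CPM. Clusters whose cells had a median depth below 0.333 of the library median also needed a marker among their 10 leading genes. Parts of the osteogenic-like and macrophage-like classes came from a resolution of 0.5, a step chosen after the data were seen. In 50 control and 80 LIP cells no class was named. Class names were rebuilt here and may differ from the authors' own.

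UMI counts were summed per class and library. Levels carry exact Poisson intervals, shares of cells Clopper-Pearson intervals, and ratios exact conditional intervals, all at 95%. A sum of 0 was set to 3 counts over the class. Shares of cells were also computed after drawing 1000 UMIs per cell, with shallower cells left out. Members and promoters were described without a test, since each condition has 1 library. Genes of the wider lists are named at 100 CPM or more in either library when past 2-fold, the members always, and other genes as leading genes of a cluster or markers. *Acp5*, *Ctsk*, *Col1a1*, *Ibsp*, *Krt14*, *Acan* and *Hapln1* were read in single cells after their values were seen. The ratio and its interval were checked on class sums simulated from a Poisson law. Such sums hold no spread between cells, so the check covers the calculation and not UMIs concentrated in few cells. Python 3.11.15, numpy 2.4.6, scipy 1.17.1, pandas 2.3.3, scanpy 1.11.5 (Scrublet) and matplotlib 3.10.9 were used. Positions are from GENCODE M21 and promoters from RefSeq, both on GRCm38.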

Additional observations from a re-analysis of the deposited data

Results flagged for a closer look

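*Mmp3* went opposite ways in the LIP library in both stromal classes, with a log2 ratio of 1.35 in osteogenic-like cells and -1.07 in fibroblast-like cells, and the difference was not tested. In the osteogenic-like cells 1 LIP cell held 219 of 354 UMIs, and without it the ratio was -0.013. There 1 control cell held 27 of 52 UMIs, and the ratio was 2.36 without it and 0.9975 (0.37 to 1.68) without both cells. Without the control cell richest in *Mmp3* the fibroblast-like ratio was -0.91, and without the richest cell of each library it was -1.20.

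The barcodes left out by the filter, 276 in the LIP and 286 in the control library, also held the genes, and in LIP 8 of the 10 stood above the control level beyond counting error. The LIP level was 2134 CPM for *Mmp13* and 678 CPM for *Timp1*, against 0.326 and 10.1 CPM in control. The other LIP levels were 98.7 CPM for *Mmp2*, 45.2 for *Mmp3*, 158 for *Mmp9*, 94.1 for *Mmp14*, 4.35 for *Mmp19* and 149.9 for *Timp2*. Of the 7846 *Mmp13* UMIs there, 7703 were in 2 barcodes. The same 2 barcodes held 2131 of the 2494 *Timp1*, 568 of the 581 *Mmp9*, 156 of the 166 *Mmp3* and 12 of the 16 *Mmp19* UMIs. They held a smaller part of the others, with 131 of 363 for *Mmp2*, 33 of 346 for *Mmp14* and 148 of 551 for *Timp2*. The LIP levels of *Mmp13*, *Timp1*, *Mmp9*, *Mmp3* and *Mmp19* thus came chiefly from these barcodes. Outside them the left-out LIP barcodes held fewer *Mmp9* UMIs than the 33 of the left-out control barcodes. *Mmp9* thus stood above the control level only through these 2 barcodes. For the other genes the comparison with control was not repeated without them. Whether such barcodes are single cells was not tested.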

How the results depend on the processing

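With 1 library per condition the spread between mice is unknown, so intervals cover counting alone. No paired analysis was possible because each condition has 1 library. For osteogenic-like proteases over inhibitors the log2 ratio in control was 0.18 at a 5% mitochondrial limit, 0.92 with Scrublet barcodes removed, -0.26 with each cell weighed the same, -0.51 without the cell with the most UMIs of the 10 genes and 0.93 without cells with cartilage UMIs. In LIP it was 1.08, 0.74, 0.72 and 1.03 under the last 4 of these. With Scrublet barcodes removed the cells were clustered anew, and the osteogenic-like class held 20 control and 34 LIP cells. A chondrocyte-like cluster of 11 control and 7 LIP cells then stood apart, so values under that setting also reflect a change in class membership. Macrophage-like cells in LIP gave -0.57 at 5%, -0.40 per cell and, reversed, 0.091 without the cell with the most UMIs of the 10 genes (chiefly *Timp1*). Weighing cells the same gave 3.94 (control) and 3.19 (LIP) in neutrophil-like and 0.60 (LIP) in fibroblast-like cells. Among LIP over control ratios, *Mmp3* in osteogenic-like cells reversed at 5% (-0.86) and within the part led by *Bglap* (-5.10), *Timp3* within the part led by *Cxcl5* (0.42), and *Mmp19* within the macrophage-like parts led by *Cd207* (-1.06) and *Mcpt4* (-0.29). Such a change of sign was counted as a reversal for ratios past 2-fold. Below 2-fold, *Mmp14* in osteogenic-like cells was -0.61 within the part led by *Bglap*, and *Mmp2* and *Timp2* turned to 0.17 and 0.18 at a resolution of 0.3, to 0.18 and 0.18 with the members among the features, and *Timp2* to 0.13 within the part led by *Cxcl5*. The osteogenic-like class held 50 control and 45 LIP cells at a resolution of 0.3, and 49 and 44 with the members among the features. *S100a5* and *Stoml3* were among its leading genes under both settings, so those values are of another set of cells. *Mmp13* in osteogenic-like cells was 5.39 without the cell richest in it in each library, and *Mmp3* ran from -5.10 to 7.04 over all settings, *Mmp13* from 0.18 to 8.54. Of the 21 member calls past 2-fold, those of *Mmp3* in osteogenic-like and fibroblast-like cells and of *Timp2* in epithelial-like cells were lost without the richest cell of a library or of both, a check added after the data were seen. At a minimum of 20 UMIs the genes past 2-fold were 952 in neutrophil-like, 1242 in macrophage-like, 1243 in osteogenic-like, 881 in fibroblast-like, 989 in epithelial-like, 745 in mural-like, 971 in vascular endothelial-like and 636 in Schwann-like cells, against 479, 596, 451, 314, 495, 272, 342 and 155. The share of them that was higher in neutrophil-like cells was 68.3% against 79.3%. At a mitochondrial limit of 5% no fibroblast-like class was named, and the osteogenic-like class held 87 control and 61 LIP cells, led also by *Mfap4* and *Lum*. Osteogenic-like values at that limit are thus of another set of cells. Of 102 alternative values of LIP over control, 53 stayed within the counting interval, 44 moved and 5 reversed. They cover each gene only in the class that held the most of its kept LIP UMIs. This was the neutrophil-like class for *Mmp8* and *Mmp9*, the macrophage-like class for *Mmp19* and the osteogenic-like class for the others. The ratios of all other classes and genes were not computed under other clustering, filter or scaling settings. Osteogenic-like shares of the LIP UMIs moved by over 1.5 times, with each cell weighed the same to 55.8% for *Mmp13*, 29.5% for *Timp1*, 18.0% for *Timp2* and 14.3% for *Timp3*, at a mitochondrial limit of 5% to 93.8% for *Mmp2*, 58.2% for *Mmp14*, 65.7% for *Timp2* and 46.7% for *Timp3*, with Scrublet barcodes removed to 14.3% for *Timp3*, and at 15 dimensions to 46.9% for *Mmp3*. For shares of a library's UMIs, all taken over kept cells, 41 of 70 stayed, and for cells with a UMI 13 of 20. The causes were not tested.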

Other observations

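The unnamed cells, which had few UMIs, also held *Mmp13* and *Timp1* in LIP. A group of 50 LIP and 30 control cells clustered beside the stromal cells but was led by *S100a5*, *Stoml3*, *Ccer2*, *Gng13* and *Omp*, and its cell type was not settled. It held 60 *Mmp13* UMIs (909 CPM) in 4 LIP cells, 39 of them in 1 cell with 823 UMIs in all, and 1 in control. *Timp1* had 50 UMIs (758 CPM) in 6 LIP cells and 2 in control.

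Among mural-like cells, *Mmp9* had 33 UMIs in LIP and 1 in control, all of the LIP UMIs in 1 of its parts and 20 of them in 1 cell, which held 1 *Csf3r* UMI. In control mural-like cells, 40 of the 43 *Mmp2* UMIs came from 1 cell.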
